A study of Mus musculus with 6 samples.

Results

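The 9 genes described here mark the hepatocytes around the central vein, or carry and record the Wnt signal there, and were read in livers of mice overdosed with acetaminophen (APAP) and of mice given saline. They are Glul, Slc1a2, Oat, Rhbg, Lgr5, Axin2, Tbx3, Rnf43 and Znrf3, chosen by gene name as β-catenin targets and genes of the glutamine synthetase layer, and all 9 were found once among the 34745 genes of the table of gene values. Bulk RNA-Seq had been done on livers of WT C57BL/6J mice, described as young adult males, which were fasted for 12 hours and then injected i.p. with APAP (300 mg/kg, 12 hours) or saline. The series holds 3 samples a group, and the libraries analysed here were 2 with APAP (replicates 1 and 3) and 3 with saline, named WT1, WT2 and WT3. APAP replicate 2 was not analysed here. The WT columns were taken to be the saline group, since the remaining columns are named for APAP, and each difference given here rests on that reading. Sex-linked genes of the WT libraries, given below, do not match mice described as males.

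As background, endothelial cells of the central vein secrete Wnt ligands and R-spondin 3. A Wnt ligand bound by Frizzled and LRP receptors stops the complex that degrades β-catenin, which then acts with TCF/LEF proteins on target genes. R-spondin bound by LGR receptors keeps the ubiquitin ligases RNF43 and ZNRF3 from removing Frizzled, so that the signal is strongest next to the vein. The innermost hepatocytes take up glutamate and ammonia that escaped the urea cycle and fix them as glutamine, and this rim lies in the centrilobular zone where APAP is activated and where its necrosis occurs.

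The 9 genes showed 2 patterns. Glul, Slc1a2, Oat, Rhbg and Lgr5 were lower with APAP, at between 0.396% and 7.47% of their saline mean. Axin2, Tbx3, Rnf43 and Znrf3 were at between 50.7% and 81.3% of it and did not pass the test. All 9 passed the filter on low counts, and 5 of them had an adjusted p under 0.05 (edgeR, quasi-likelihood F test, Benjamini-Hochberg over 13734 tested genes). Of all tested genes, 7.23% passed in either direction and 3.53% as lower with APAP. At an unadjusted p under 0.05 with a fold change of at least 1.5, 7 of the 9 genes passed, Axin2 and Tbx3 among them, against 23.5% of the tested genes. The APAP libraries lay below all saline libraries for 8 of the 9 genes, against 20.1% of the tested genes (44.1% with no overlap in either direction). Rhbg and Lgr5 passed the filter through their saline counts, so that their passing was tied to the group in which they were high.

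Levels are given as CPM, the count scaled to the TMM-normalized library size, and each difference as log2 of APAP over saline. The total count was between 13378445 and 15976339 per library, and 3 counts, taken as the floor of detection for counting error, corresponded to between 0.176 and 0.269 CPM. The liver gene albumin was at between 51545 and 129117 CPM. Sex-linked genes separated the groups in all 5 libraries. Xist was at 0.764 and 1.73 CPM after APAP, against 289.6 to 914 CPM after saline, and the Y-linked Ddx3y was at 79.0 and 61.7 CPM with APAP and had at most 1 count in a saline library. Treatment and a difference in sex between the groups thus cannot be told apart. The pattern of the WT libraries is that of females, against the description of the mice as males. Whether these columns hold the saline mice of the series could not be checked. The study's methods speak of individual biological repeats in general, while the labels do not tie these libraries to separate mice, so p-values measure only the spread between these libraries. In bulk tissue, fewer cells of a type and less RNA per cell cannot be told apart either.

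**Figure D1:**
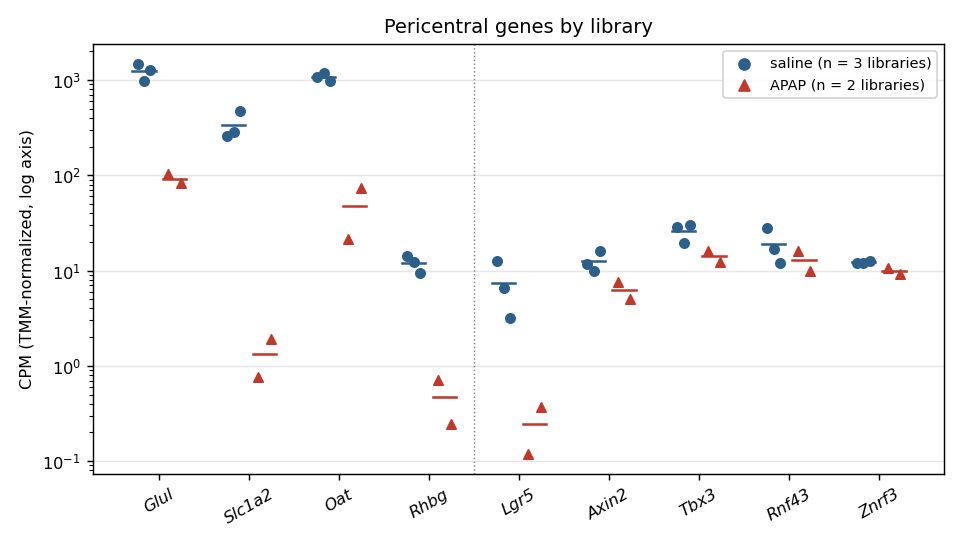
Levels of the 9 genes in each library, in CPM on a log axis, with saline as circles, APAP as triangles and group means as bars. Left of the dotted line are the genes of the glutamine synthetase layer; these and Lgr5 show a wide gap between the groups, while Axin2, Tbx3, Rnf43 and Znrf3 lie close together.

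Glul encodes glutamine synthetase, which joins ammonia to glutamate and is the classical marker of the innermost ring of hepatocytes. It is listed as ENSMUSG00000026473 on chromosome 1 of GRCm38 (chr1:153899944-153909723, plus strand). Glul was at 102.2 and 82.95 CPM after APAP, against 1491, 965.5 and 1261 CPM after saline. Both APAP libraries were far below the lowest saline library, which was 9.45-fold above the higher of them. The mean was 92.6 ± 13.6 CPM after APAP (SD, n = 2) and 1239 ± 263 CPM after saline (SD, n = 3), and Glul fell with a log2 difference of −3.74 (SE, the standard error, 0.35; edgeR quasi-likelihood adjusted p = 0.00376). Of the 50-base words of its longest coding transcript, 15.02% occur in transcripts of other genes, the closest being the processed pseudogene Glns-ps1, so that a part of its reads may have been assigned elsewhere.

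Slc1a2 encodes the glutamate transporter GLT-1, known from astrocytes and, in liver, from the rim of hepatocytes that express glutamine synthetase. Its entry is ENSMUSG00000005089 (chr2:102658659-102790784, plus strand). With 13 and 31 counts, it reached 0.764 and 1.92 CPM after APAP, against 260.0, 283 and 472 CPM after saline. No other of the 9 genes differed so much, and 18 of the 13734 tested genes had a lower fitted value. Its mean was 1.34 ± 0.815 CPM after APAP (SD, n = 2) and 338 ± 116 CPM after saline (SD, n = 3), a log2 difference of −7.98 (SE 0.61, edgeR quasi-likelihood adjusted p = 0.00194) that was −8.78 without APAP replicate 3.

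Oat encodes ornithine aminotransferase, a mitochondrial enzyme that turns ornithine into a precursor of glutamate. The table gives it as ENSMUSG00000030934 (chr7:132557475-132576398, minus strand). Oat was at 21.5 and 73.6 CPM after APAP, against 1077, 1180 and 978 CPM after saline. The saline libraries were close together (1.21-fold between the highest and the lowest), whereas the APAP libraries differed 3.42-fold. The log2 fold change of −4.50 (SE 0.60, edgeR quasi-likelihood adjusted p = 0.0105) became −3.87 when APAP replicate 1 was left out and −5.66 without APAP replicate 3, and the adjusted p was 0.0547 without the saline library WT2.

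Rhbg encodes a membrane channel for ammonia of the Rhesus family. Its entry is ENSMUSG00000104445 (chr3:88242874-88254709, minus strand). Rhbg had 12 and 4 counts in the APAP libraries (0.705 and 0.247 CPM), and 160, 186 and 140 counts in the saline libraries (14.3, 12.4 and 9.35 CPM). The groups were separated 13.3-fold at their nearest libraries, although the level was low in both. The log2 fold change was −4.62 (SE 0.51, edgeR quasi-likelihood adjusted p = 0.00559) and −5.55 without APAP replicate 1. The gene shares 60.4% of its 50-base words with Gm38392, a protein-coding gene on the same strand that had at most 8 counts in a library, so its count is uncertain where reads could be split between them.

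Summed over these 4 genes, the layer was at 125 and 159 CPM after APAP, against 2842, 2441 and 2720 CPM after saline. All 4 fell, with a median log2 fold change of −4.56, against a median of 0.03 over all tested genes and of −0.83 over 12 general hepatocyte genes. Per kilobase of exon, the order of the levels with saline ran from Oat (457 ± 42.8 CPM per kb; SD, n = 3) and Glul (373 ± 79.2 CPM per kb; SD, n = 3), whose libraries overlapped, through Slc1a2 (25.7 ± 8.84 CPM per kb; SD, n = 3) to Rhbg (6.20 ± 1.30 CPM per kb; SD, n = 3). With APAP, Glul (27.9 ± 4.09 CPM per kb; SD, n = 2) and Oat (20.2 ± 15.6 CPM per kb; SD, n = 2) overlapped, and Slc1a2 (0.102 ± 0.0620 CPM per kb; SD, n = 2) and Rhbg (0.246 ± 0.167 CPM per kb; SD, n = 2) overlapped too.

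Lgr5 encodes a receptor for R-spondins and is itself a β-catenin target, known as a marker of stem cells in the gut and of pericentral hepatocytes in liver. The table gives it as ENSMUSG00000020140 (chr10:115450311-115587780, minus strand). Lgr5 had 2 and 6 counts in the APAP libraries and 140, 98 and 47 counts in the saline libraries, where it was at 12.5, 6.51 and 3.14 CPM. The groups did not overlap, but the saline libraries themselves differed 3.996-fold. The ratio of summed counts, saline over APAP, was 28.7 (exact 95% interval 14.4 to 67.2, counting error only). The log2 fold change was −4.88 (SE 0.84, edgeR quasi-likelihood adjusted p = 0.0222), and this call rested on single libraries. The adjusted p was 0.136 without APAP replicate 1, 0.0651 without APAP replicate 3 and 0.0831 without WT2, and the log2 fold changes were −4.28, −5.88 and −4.96, with −4.26 without WT1.

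Axin2 encodes a scaffold of the complex that degrades β-catenin and is used widely as a readout of Wnt signaling, since β-catenin induces it. It is listed as ENSMUSG00000000142 (chr11:108920349-108950783, plus strand). Axin2 was at 7.58 and 5.07 CPM after APAP, against 11.7, 9.83 and 15.97 CPM after saline. The groups did not overlap, yet the nearest libraries were only 1.30-fold apart. The log2 fold change was −0.98 (95% interval −1.76 to −0.20 before adjustment), and the adjusted p was 0.124 by edgeR's quasi-likelihood test.

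Tbx3 encodes a T-box transcription factor that is a β-catenin target in liver. It is listed as ENSMUSG00000018604 (chr5:119670669-119684724, plus strand). Tbx3 was at 16.1 and 12.4 CPM after APAP, against 28.6, 19.5 and 30.4 CPM after saline, with no overlap. Its log2 fold change of −0.87 (95% interval −1.52 to −0.23 before adjustment) had an adjusted p of 0.104 by edgeR's quasi-likelihood test, while DESeq2 gave an adjusted p of 0.0439.

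Rnf43 and Znrf3 encode the ubiquitin ligases that remove Frizzled from the cell surface, and both are induced by the signal that they limit. Rnf43 (ENSMUSG00000034177, chr11:87662722-87735539, plus strand) was at 16.04 and 9.83 CPM after APAP, against 27.9, 16.7 and 12.1 CPM after saline. It was the gene of the 9 whose groups overlapped. Its log2 fold change was −0.54 (95% interval −1.49 to 0.41, adjusted p = 0.456 by edgeR's quasi-likelihood test). Znrf3 (ENSMUSG00000041961, chr11:5276324-5444847, minus strand) was at 10.7 and 9.21 CPM after APAP, against 12.0, 12.0 and 12.7 CPM after saline. Its groups did not overlap, with 1.12-fold between the nearest libraries and a log2 fold change of −0.30 (95% interval −0.82 to 0.23, adjusted p = 0.457 by the same test).

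The smaller differences of Axin2, Tbx3, Rnf43 and Znrf3 depended on the scaling. The direction changed for Tbx3, Rnf43 and Znrf3, while Axin2 kept its sign but lost nearly all of its difference in the first scaling given here. Relative to the general hepatocyte genes, a scaling chosen after seeing the data, Axin2 was at −0.06, Tbx3 at 0.05, Rnf43 at 0.44 and Znrf3 at 0.58, and scaled to library size only Znrf3 was at 0.10. These scalings moved the median log2 fold change of all genes from 0.03 to 0.88 and 0.42, and the share of higher genes among those called from 51.2% to 93.4% and 77.8%. The 5 genes that fell kept their direction and their call in both of these fits, with Glul at −2.82 and Slc1a2 at −7.25 relative to the general hepatocyte genes.

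**Figure D2:**
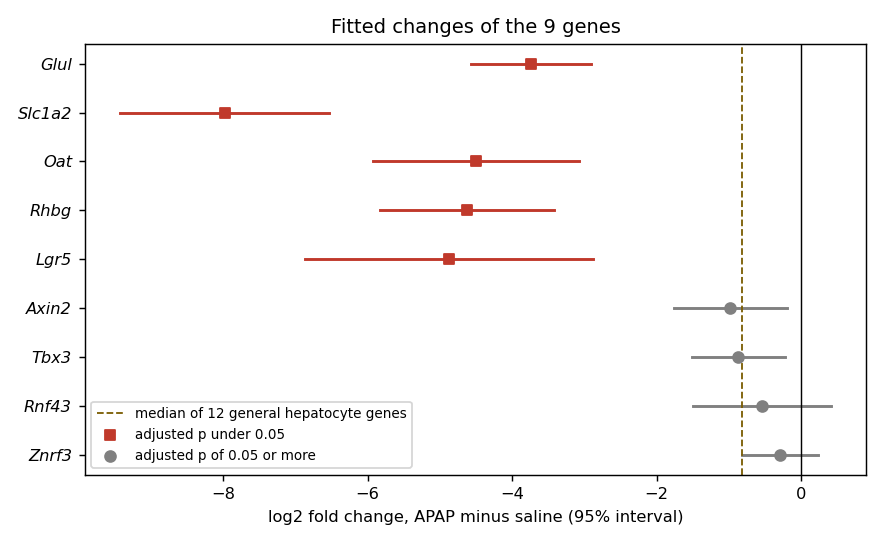
Fitted log2 fold change of each gene (APAP minus saline) with its 95% interval; squares mark an adjusted p under 0.05 and circles the others. The 5 squares lie at −3.74 or lower, and the 4 circles lie at −0.98 or higher, around the dashed line at −0.83 that marks the median of the general hepatocyte genes.

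Promoter sequence was read for the members with an entry in the RefSeq windows of GRCm38.p6, which run from 250 bases before to 50 bases after a gene's start. Entries existed for 5 of the 9 genes (6 windows). The TCF/LEF words CTTTGAT and CTTTGAA were searched on both strands, and 8.65% of all 32851 windows hold at least 1 of them. Of the 6 windows, 1 holds such a word, that of Slc1a2, which begins inside the gene as the table spans it. The windows of Slc1a2 and Glul are shown because they belong to the gene that fell furthest and to the classical marker, and that of Axin2 because it belongs to the common Wnt readout that did not pass the test. Capitals mark the word, which reads on the minus strand, and a window without capitals holds neither word, which says nothing of sites elsewhere in the gene.
Slc1a2 (chr2:102706188-102706487, plus strand): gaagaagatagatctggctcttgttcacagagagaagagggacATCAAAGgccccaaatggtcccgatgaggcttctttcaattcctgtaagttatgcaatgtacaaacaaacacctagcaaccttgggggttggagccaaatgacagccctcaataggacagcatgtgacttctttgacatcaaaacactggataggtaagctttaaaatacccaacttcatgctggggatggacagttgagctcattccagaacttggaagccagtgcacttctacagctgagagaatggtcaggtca
Glul (chr1:153899679-153899978, plus strand): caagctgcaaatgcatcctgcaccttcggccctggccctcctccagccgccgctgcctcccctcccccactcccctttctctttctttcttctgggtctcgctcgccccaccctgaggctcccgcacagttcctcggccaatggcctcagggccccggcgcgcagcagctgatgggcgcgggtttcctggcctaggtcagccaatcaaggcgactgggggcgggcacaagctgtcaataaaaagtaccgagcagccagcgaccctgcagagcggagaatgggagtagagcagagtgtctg
Axin2 (chr11:108920099-108920398, plus strand): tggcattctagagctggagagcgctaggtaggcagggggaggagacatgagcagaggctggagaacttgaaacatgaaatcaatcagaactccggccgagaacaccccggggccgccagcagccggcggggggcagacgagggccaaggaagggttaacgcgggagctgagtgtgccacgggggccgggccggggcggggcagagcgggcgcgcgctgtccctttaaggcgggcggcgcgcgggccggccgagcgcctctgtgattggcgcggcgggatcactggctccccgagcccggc

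The ligands of the pathway were read next. Of 23 Wnt and R-spondin genes, 9 had no count in any library and 7 were tested. Of these, 1 (Wnt2) fell, against 3.53% of all tested genes. Wnt2, a ligand made by endothelial cells of liver, had 5 and 6 counts in the APAP libraries (0.294 and 0.371 CPM), against 4.302, 3.19 and 4.61 CPM after saline. It passed the filter through its saline counts (48, 48 and 69), as Rhbg and Lgr5 did. Its log2 fold change was −3.57 (SE 0.49, edgeR quasi-likelihood adjusted p = 0.0118). The call was lost without APAP replicate 1 and without WT2, and the value was between −3.75 and −3.41 over the 5 fits without 1 library. Wnt9b, the other ligand known from the central vein, was at 0.353 and 0.371 CPM after APAP, against 1.88, 1.73 and 1.27 CPM after saline (log2 fold change −2.14, adjusted p = 0.0722 by the same test). With 6 counts in each APAP library and 21, 26 and 19 counts with saline, Wnt9b also passed the filter through its saline counts. Rspo3, the R-spondin of the vein, was at 4.35 and 3.65 CPM after APAP, against 8.51, 6.91 and 4.88 CPM after saline. Its log2 fold change was −0.75 (95% interval −1.58 to 0.07, adjusted p = 0.238 by the same test). Wnt2, Wnt9b and Rspo3 were lower with APAP without overlap, as were 20.1% of all tested genes. Wnt9a went the other way without overlap, at 1.29 and 1.11 CPM against 0.896, 0.797 and 1.002 CPM. The median log2 fold change of the 7 tested genes was 0.42. Wnt4 was at 4.58 and 2.97 CPM against 4.03, 1.99 and 1.603 CPM, with overlap.

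Beside Wnt2, the levels of endothelial markers were read as a list. Of 14 endothelial markers, 0 had an adjusted p under 0.05 by edgeR's quasi-likelihood test, with 1 at an unadjusted p under 0.05 and 0 calls by the likelihood ratio test, the exact test and DESeq2. Relative to the general hepatocyte genes, 2 of the 14 were called higher. The median log2 fold change of these markers was 0.10, and their summed level was between 213 and 311 CPM with APAP and between 218 and 325 CPM with saline.

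None of 11 tested Wnt receptor genes passed edgeR's quasi-likelihood test, with 2 at an unadjusted p under 0.05, 1 call by the likelihood ratio test, 0 by the exact test and 1 by DESeq2. Scaled to the general hepatocyte genes, 3 of the 11 were called higher. The co-receptor Lrp6 was at 136.0 and 134 CPM after APAP, against 95.2, 87.8 and 115 CPM after saline, and Lrp5 at 71.5 and 86.2 CPM against 107, 82.4 and 120.4 CPM. Lgr4, the R-spondin receptor related to Lgr5 that is expressed across the lobule, was at 36.9 and 38.3 CPM against 63.7, 70.7 and 59.4 CPM, with a log2 fold change of −0.78 (SE 0.20, adjusted p = 0.0607 by edgeR's quasi-likelihood test).

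Of 17 tested genes of the destruction complex and of the nuclear factors, 0 passed edgeR's quasi-likelihood test (0 at an unadjusted p under 0.05, and 0 by the likelihood ratio test, the exact test and DESeq2), and their median log2 fold change was 0.01. Ctnnb1, which encodes β-catenin, was at 255 and 209.9 CPM after APAP, against 162, 166 and 162 CPM after saline (log2 fold change 0.51, 95% interval −0.00395 to 1.02, adjusted p = 0.204). Csnk1a1, a kinase that marks β-catenin for removal, was at 123 and 99.6 CPM against 105, 102 and 104 CPM. Among 4 tested genes for secreted Wnt inhibitors and their receptor, 0 passed the test by any of the 4 tools (1 at an unadjusted p under 0.05), and the receptor Kremen1 was at 13.3 and 11.3 CPM against 12.1, 13.2 and 11.7 CPM. Scaled to the general hepatocyte genes, 2 of these 4 genes and 2 of the 17 above were called higher. With that scaling, 93.4% of all called genes were higher.

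Of 12 other known β-catenin target genes, 9 were tested and 1, Myc, rose by edgeR's quasi-likelihood test. Both edgeR's exact test and its likelihood ratio test called 4 of them higher, as did the fit with library size only, 6 were called higher relative to the general hepatocyte genes, and DESeq2 called 4 higher and 1 lower. Myc, a transcription factor of growth that many other signals also induce, was at 17.5 and 19.3 CPM after APAP, against 1.34, 1.79 and 2.34 CPM after saline (log2 fold change 3.32, standard error 0.31, edgeR quasi-likelihood adjusted p = 0.00376, where 3.70% of tested genes passed as higher). Ccnd1, the gene of cyclin D1, was at 69.3 and 121 CPM against 24.2, 17.9 and 4.68 CPM, with an adjusted p of 0.0506. Notum, which encodes an enzyme that inactivates Wnt, was at 2.06 and 15.02 CPM against 37.6, 28.0 and 29.1 CPM, and Nkd1, an intracellular inhibitor, at 3.82 and 3.89 CPM against 7.71, 7.11 and 3.07 CPM, both with an adjusted p above 0.05. Lect2, a secreted liver protein, was at 54.2 and 93.3 CPM against 152, 129.7 and 105 CPM, with an adjusted p of 0.167. The median log2 fold change of these 9 genes was 1.09. Without APAP replicate 1 the filter kept 10 genes of the list, and their median was 0.49.

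**Figure D3:**
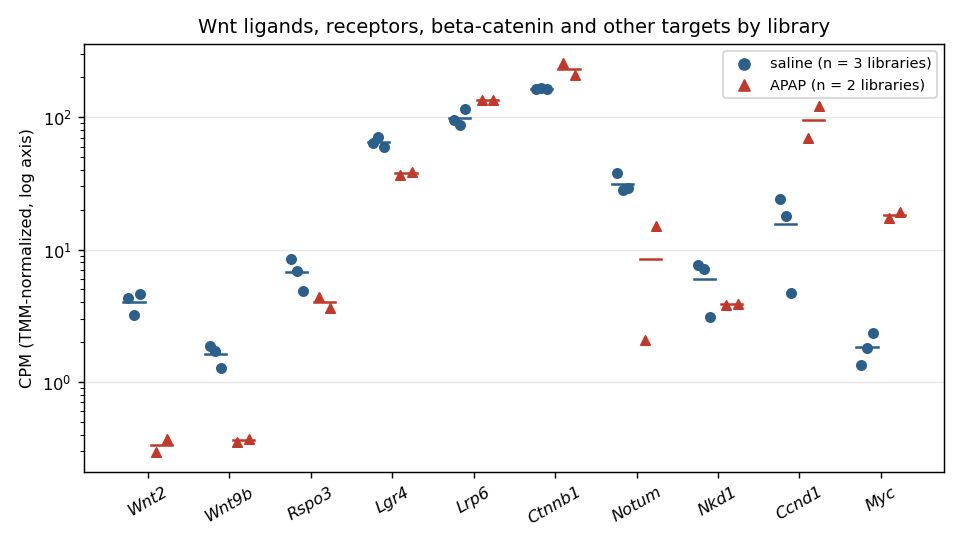
Levels of Wnt2, Wnt9b and Rspo3 (ligands), Lgr4 and Lrp6 (receptors), Ctnnb1 (β-catenin) and 4 other β-catenin targets in each library, in CPM on a log axis, with bars at group means. Wnt2 and Wnt9b lie lower with APAP (circles saline, triangles APAP), Lrp6 and Ctnnb1 lie slightly higher, and Myc lies 10.1-fold higher by the means.

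Most genes of the wider pericentral set fell as well. All 22 such genes were tested, all had a fitted value below 0, and 14 of them fell by edgeR's quasi-likelihood test, against 3.53% of all tested genes. Slc22a3, among the 14, had 3 and 1 counts with APAP and 25, 43 and 137 with saline. It thus passed the filter through its saline counts. With at least 10 counts required in every library, 20 genes of this list were tested and 14 fell. The median log2 fold change of the 22 genes was −2.33. Cyp7a1, the rate-limiting enzyme of bile acid synthesis, was at 1.18 and 1.42 CPM after APAP, against 72.7, 163 and 115 CPM after saline (log2 fold change −6.48, adjusted p = 0.00184 from the same test). Rgn, which encodes a calcium-binding protein with a part in vitamin C synthesis, was at 46.2 and 89.8 CPM against 1516, 1292 and 607 CPM (−4.06, adjusted p = 0.0121). Lhpp, a phosphatase gene, was at 2.76 and 10.2 CPM against 74.3, 64.4 and 70.5 CPM (−3.43, adjusted p = 0.0178). Also named by their small p-values were Slc16a10, a transporter of aromatic amino acids (−3.27), Pon1, a lactonase of plasma lipoproteins (−2.66), and Aldh3a2, a fatty aldehyde dehydrogenase (−2.46). The APAP libraries lay below all saline libraries for 19 of the 22 genes, against 20.1% of all tested genes. Cyp2e1, the P450 that activates APAP, was at 783 and 1593 CPM against 8353, 5265 and 4363 CPM (−2.34, adjusted p = 0.0418). The 14 calls became 4 without APAP replicate 1, 7 without APAP replicate 3, 8 without WT1 and 2 without WT2, while the median stayed between −2.63 and −2.04.

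Genes of the periportal zone, at the other end of the lobule, included both lower and higher genes. Of 20 tested periportal genes, 6 fell and 1 rose by edgeR's quasi-likelihood test, against 3.53% lower and 3.70% higher of all tested genes. Their median log2 fold change was −1.15. Gls2, the liver glutaminase that frees ammonia from glutamine upstream of Glul, was at 73.7 and 91.8 CPM after APAP, against 475, 439 and 367 CPM after saline (−2.37, adjusted p = 0.00629). Of the urea cycle genes, Otc and Ass1 fell (−2.09 and −1.72), whereas Cps1, which fixes ammonia, was at 3189 and 1924 CPM against 4290, 4982 and 5072 CPM with an adjusted p of 0.186. Pck1, of gluconeogenesis, was at 819 and 2435 CPM against 3379, 3705 and 3878 CPM with an adjusted p of 0.203. Apoa4, an apolipoprotein gene, rose (3.58, adjusted p = 0.00521). Pigr and Uroc1 fell by 1.56 and 1.22 on the log2 scale. The 6 lower calls became 0 without APAP replicate 1, 1 without APAP replicate 3, 3 without WT1, 1 without WT2 and 3 relative to the general hepatocyte genes.

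The enzymes and transporters that share substrates with Glul, Slc1a2 and Oat moved both ways. Of 15 tested genes, Prodh and Gls2 fell and Odc1 and Slc1a4 rose, against 3.53% lower and 3.70% higher of all tested genes. The median log2 fold change of the 15 genes was 0.25. Prodh, which starts the breakdown of proline toward glutamate, was at 31.3 and 28.2 CPM after APAP, against 159, 127 and 156 CPM after saline (−2.31, edgeR quasi-likelihood adjusted p = 0.00482). The Gls2 call did not hold in each of the 5 fits without 1 library, where its log2 fold change was between −2.54 and −2.21. Odc1 uses the same ornithine as Oat, to make polyamines, and was at 203 and 156 CPM against 55.4, 41.9 and 52.6 CPM (1.85, adjusted p = 0.00908). Slc1a4, a neutral amino acid transporter of the family of Slc1a2, was at 12.2 and 19.2 CPM against 5.20, 4.45 and 3.14 CPM (1.88, adjusted p = 0.0238). Glud1, glutamate dehydrogenase, was at 886 and 1546 CPM against 1614, 1478 and 1263 CPM, with overlap. Without APAP replicate 1 and without WT2 neither rise was called, and Slc1a4 was not called without APAP replicate 3 either.

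**Figure D4:**
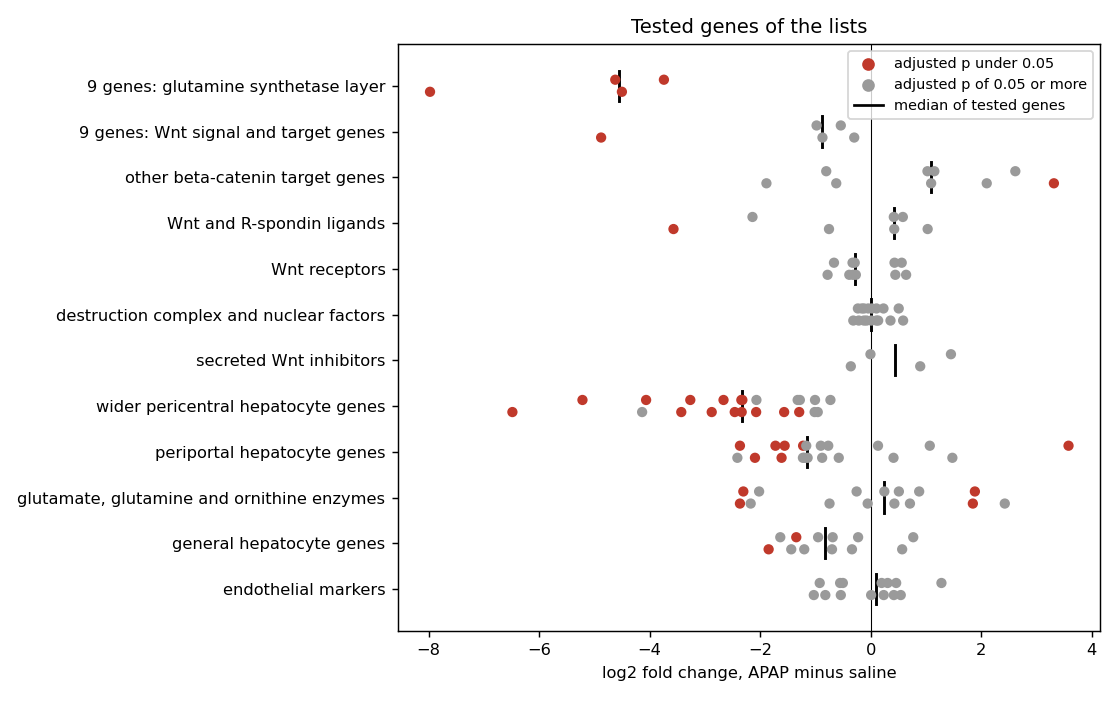
Fitted log2 fold change (APAP minus saline) of each tested gene, by list, with genes of an adjusted p under 0.05 in red, the others in grey and the median of each list as a black bar. The glutamine synthetase layer (median −4.56) and the wider pericentral genes (−2.33) lie to the left, and the genes of the destruction complex lie around 0 (0.01).

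Markers of other cells and of hepatocytes in general moved with the groups as follows, and their part in the differences of the 9 genes was not tested. Of 12 general hepatocyte genes, 2 fell by edgeR's quasi-likelihood test (Cebpa and Apoa2), against 3.53% of all tested genes. These calls became 0 without APAP replicate 1, APAP replicate 3, WT1 or WT2 and 1 without WT3, and they were 5 by the likelihood ratio and exact tests and 6 by DESeq2. The summed level of the 12 genes was between 86908 and 135069 CPM with APAP and between 139320 and 196982 CPM with saline. Of 10 tested neutrophil markers 8 rose, against 3.70% of all tested genes. Markers such as Retnlg (189 and 135 counts with APAP, 2, 5 and 8 with saline) passed the filter through their APAP counts. Their passing was thus tied to the group in which they were high. With at least 10 counts required in every library, 2 of the markers were tested and 2 rose. The 8 calls became 3 without APAP replicate 1, 5 without APAP replicate 3 and 2 without WT2. S100a9 was at 41.5 and 30.3 CPM against 1.61, 1.13 and 2.004 CPM, and the summed level of the markers was 131 and 83.5 CPM with APAP and between 5.65 and 9.42 CPM with saline. Of 6 tested cholangiocyte markers Spp1 and Sox9 rose (2.88 and 3.05), while Cftr had at most 5 counts in a library. Of 10 stellate cell markers Col1a1 rose (1.97, adjusted p = 0.0498), a call lost in all 5 fits without 1 library, and of 8 Kupffer cell markers 0 passed the test, with 1 at an unadjusted p under 0.05 and 1 call each by the likelihood ratio test, the exact test and DESeq2.

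By likeness of pattern, the genes nearest to Glul were Cyp2c70, Afmid, Pcp4l1, Etnppl and Cth. Likeness was the Euclidean distance of log2(CPM + 0.5), centred on each gene's mean, over the 5 libraries and among 7892 genes averaging 10 CPM or more. Cyp2c70, a P450 of bile acid metabolism, was at a distance of 0.218, with 71.3 and 66.6 CPM with APAP and 1155, 786 and 877 CPM with saline. Cth, the cystathionine γ-lyase of cysteine synthesis, was at 0.696. Of the other members at 10 CPM or more, Oat was at 1.92 and ranked 91st, and Axin2 was at 3.104 and ranked 676th. Tbx3 (761st), Rnf43 (1731st), Znrf3 (2349th) and Slc1a2 (5298th, at 4.35) were farther. The distance grows with any difference in the size of the change, in either direction. Slc1a2 fell in the same libraries as Glul but further (log2 fold change −7.98 against −3.74), so its rank reflects a larger fall.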

How the data were processed

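Total liver RNA was sequenced on an Illumina NovaSeq, and the authors aligned reads with HISAT2. The authors deposited 1 table of raw gene counts and FPKM values, of which the FPKM columns were not used here. The submitters' processing notes name the builds GRCm38 and mm10, while tool versions and the annotation are not given in the sources used here. The 5 count columns were 2 with APAP and 3 named WT, which match no single saline sample by number.

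Counts were filtered with edgeR's filterByExpr (minimum count 10, minimum total 15), which left 13734 of 34745 genes, TMM-normalized and tested with edgeR's quasi-likelihood test (edgeR 4.0.16, R 4.3.3), two-sided, with Benjamini-Hochberg adjustment and a threshold of 0.05. Intervals are at 95%, and they and the floor of 3 counts cover counting error or library spread as stated. Within-group libraries differed beyond counting noise, so each counted as 1 sample. Python 3.11.15 and matplotlib 3.10.9 were used for sequences and plots. The scripts were tested on simulated data with known fold changes.

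The 9 genes and all lists were chosen with earlier results of these data known. The rule for named genes took the 9 genes, up to 6 genes of smallest p among those that passed and the 2 most abundant tested genes of each list, and the 5 genes nearest to Glul. Some genes it took are not given, mostly markers of other cells. Wnt9a, Wnt9b, Lgr4, Notum, Nkd1, Ccnd1, Cps1, Glud1, Cftr, Xist and Ddx3y were named, where outside that rule, after their values were seen, as were examples of other lists. The share of 50-base words in other genes and exon lengths came from GENCODE M21, in which 8 of the 9 genes have the span of the table (Oat differs). Alternatives were other normalizations, filters and tests (DESeq2 1.42.0 among them), each library left out in turn, and a scaling to general hepatocyte genes that was added after seeing the data.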

Additional observations from a re-analysis of the deposited data

How the results depend on the processing

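No paired analysis was possible because the saline columns carry no replicate number of a saline sample. The count of all genes called (993) was 1835 by the likelihood ratio test, 1776 by the exact test, 2093 by DESeq2 and 3417 when scaled to the general hepatocyte genes, an alternative chosen after seeing the data. Without 1 library it ranged from 165 (without WT2) to 922. The calls in the other lists (39) were 59 by the likelihood ratio test, 65 by DESeq2 and 68 with the hepatocyte scaling, and from 10 (without WT2) to 38 without 1 library. Of the 9 genes, 5 were called, and 3 were called with at least 10 counts required in every library, a filter that removed Rhbg and Lgr5. Without 1 library the number ranged from 3 (without WT2) to 5. Fewer libraries entered those fits, and for the other changes the cause was not tested. The log2 fold changes that turned positive were those of Rnf43 (0.44), Tbx3 (0.0493) and Znrf3 (0.58) with the hepatocyte scaling and of Znrf3 (0.10) with library size only. Glul and Slc1a2 were called in all 14 alternatives and Rhbg in all 13 that tested it. Depth limits Slc1a2, Rhbg and Lgr5 in the APAP libraries, where they had at most 31 counts.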
